A study of Arabidopsis thaliana with 4 samples.

Results

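Jasmonate is a lipid-derived plant hormone, and the genes described here make it, sense it, remove it and respond to it. The set holds 45 genes of Arabidopsis thaliana, chosen by their gene identifiers: the synthesis and turnover enzymes, the receptor COI1, the MYC transcription factors, the JAZ repressors, and the output genes VSP1, VSP2 and PDF1.2. Each of the 45 was found in 1 annotated gene model, out of 36251 models in the deposited table, of which 32122 were annotated. The rule itself uses no expression value.

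The RNA came from whole seedlings, 2 weeks old, of 2 wild-type lines of the Columbia accession (Col-0) that were propagated apart: SALK Col-0 and Another Col-0. Both lines were grown under long days on soil at 22 °C, and 2 biological replicates per line were sequenced. Nothing in the labels says how the replicates were separated, so p-values measure the spread between these 4 libraries, which may in part be technical. The labels give no mutation, transgene or treatment for either line.

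In undisturbed tissue, JAZ proteins hold the MYC factors inactive, with the adaptor NINJA linking them to a corepressor. Wounding or insect feeding releases fatty acids in the chloroplast, which lipoxygenases, allene oxide synthase and allene oxide cyclases turn into a precursor that peroxisomal enzymes finish as jasmonic acid. JAR1 joins it to isoleucine, and this conjugate brings JAZ proteins to the F-box protein COI1 for degradation, after which the MYC factors switch on genes that include many JAZ and synthesis genes themselves. In leaves the pathway is known for wound defence and vegetative storage proteins, and in flowers for stamen maturation.

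Values are FPKM (fragments per kilobase of transcript, scaled to the mapped fragments of the library). Where a pair of values follows a line's name, the first is replicate 1 and the second replicate 2. Differences are those of log2(FPKM + 1), Another Col-0 minus SALK Col-0, with the standard error of limma's linear model, and this scale understates changes of low genes. A "replicate pair" is the library of each line with the same number. Models were tested where the mean of the 4 libraries was at least 1 FPKM, a rule that 41 of the 45 jasmonate genes met. With 2 libraries against 2, the smallest two-sided p of an exact permutation test is 0.333, and the test therefore rests on the spread that limma pools over all models.

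The promoters of some members are shown first, because the MYC factors bind the G-box CACGTG and its relative CACATG, and because ethylene response factors bind the GCC-box GCCGCC. Each window covers 250 bases before and 50 bases from the RefSeq gene start, in the TAIR10.1 build, and all 45 members have one. Both strands were searched, CACGTG reads the same on both, and none of these motifs can hold another. CACGTG stands in 6 of the 45 windows (13.3%) and in 7.68% of the 27443 windows of nuclear protein-coding genes. The carriers are JAZ2, JAZ3, JAZ7, JAZ8, AOS and ACX1. CACATG stands in 10 windows (22.2%, against 12.9% of all) and GCCGCC in those of DGL and PDF1.2 (4.44%, against 2.57% of all). A match is a description of letters and no evidence of binding.

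The windows printed here are those of JAZ8, with higher values in Another Col-0, and its relative JAZ7, a JAZ gene with lower values (JAZ3), the turnover gene CYP94C1, and PDF1.2. They lie at chr2:14572780-14573079 (JAZ7, plus strand), chr1:10596102-10596401 (JAZ8, plus strand), chr3:6119457-6119756 (JAZ3, plus strand), chr2:11809029-11809328 (CYP94C1, plus strand) and chr5:17907589-17907888 (PDF1.2, minus strand). Capitals mark the 3 motifs in either orientation.
JAZ7: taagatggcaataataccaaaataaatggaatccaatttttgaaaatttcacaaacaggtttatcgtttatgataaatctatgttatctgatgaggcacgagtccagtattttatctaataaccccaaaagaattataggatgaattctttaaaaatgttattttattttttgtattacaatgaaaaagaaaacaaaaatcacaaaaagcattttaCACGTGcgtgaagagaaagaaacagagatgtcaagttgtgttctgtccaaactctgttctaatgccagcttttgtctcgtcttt
JAZ8: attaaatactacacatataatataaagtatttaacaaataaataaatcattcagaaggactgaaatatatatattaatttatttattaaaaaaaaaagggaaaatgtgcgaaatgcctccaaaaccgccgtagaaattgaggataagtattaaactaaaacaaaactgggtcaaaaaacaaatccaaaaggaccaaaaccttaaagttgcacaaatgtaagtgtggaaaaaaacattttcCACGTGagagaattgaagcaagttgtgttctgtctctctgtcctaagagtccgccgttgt
JAZ3: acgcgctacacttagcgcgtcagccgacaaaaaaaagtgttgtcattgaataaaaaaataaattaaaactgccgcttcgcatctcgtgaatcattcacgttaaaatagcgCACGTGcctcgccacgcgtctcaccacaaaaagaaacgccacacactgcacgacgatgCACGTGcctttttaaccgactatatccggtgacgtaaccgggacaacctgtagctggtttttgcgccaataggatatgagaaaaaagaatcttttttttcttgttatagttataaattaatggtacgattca
CYP94C1: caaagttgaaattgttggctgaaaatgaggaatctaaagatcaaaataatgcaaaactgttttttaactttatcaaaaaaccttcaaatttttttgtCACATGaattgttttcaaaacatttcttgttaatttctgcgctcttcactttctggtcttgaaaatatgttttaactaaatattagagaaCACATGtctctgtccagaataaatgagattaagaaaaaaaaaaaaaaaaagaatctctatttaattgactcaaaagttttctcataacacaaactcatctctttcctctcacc
PDF1.2: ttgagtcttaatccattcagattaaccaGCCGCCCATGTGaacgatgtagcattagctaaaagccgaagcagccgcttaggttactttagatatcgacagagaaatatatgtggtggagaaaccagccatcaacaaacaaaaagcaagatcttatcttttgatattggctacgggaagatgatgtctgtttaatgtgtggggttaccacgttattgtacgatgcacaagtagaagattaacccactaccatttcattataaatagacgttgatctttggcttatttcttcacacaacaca

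JAZ8 and JAZ7 carry CACGTG close to the gene start, and JAZ3 carries it at 2 places. CYP94C1 has CACATG at 2 places, and PDF1.2 has GCCGCC next to CACATG. Among the 13 tested members whose values were higher in both Another Col-0 libraries than in both SALK Col-0 libraries, 2 had CACGTG and 4 had CACATG. Among the 15 tested members with lower values in that sense, 2 had CACGTG and 5 had CACATG. JAZ8, among the 13, and PDF1.2, among the 15, were tested only through the line where each was high.

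The differences of the jasmonate genes between the lines lay on both sides of 0. Over the 41 tested members the median difference was -0.033, and within the replicate pairs it was -0.03 and -0.013, beside 0.024 over all 20634 tested models. The members' median was positive, at 0.018 and 0.016, without SALK Col-0 replicate 1 and without Another Col-0 replicate 2. By adjusted p, 0 members were higher and 0 lower, as were 0% of all tested models (limma, Benjamini-Hochberg over all models, smallest adjusted p = 0.199). At an unadjusted p under 0.05 there were 4 higher members (9.76%) and 5 lower ones (12.2%), where 10.2% and 6.45% of all tested models had such a p. Among the 18432 annotated tested models, the like set for the members, 2107 higher and 1330 lower ones had such a p. PDF1.2, among the 5, was tested only through its SALK Col-0 values.

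The count of members past the adjusted threshold depended on the model. In a fit of annotated models only, 0 members passed, beside 0.0543% of the models called higher and 0.00543% lower. With the replicate number as a block, which the labels do not give as a batch, 11 members were called higher and 8 lower (limma, smallest adjusted p of a member = 0.0337), beside 14.3% and 8.11% of all tested models. That adjusted p was also the smallest over all models in that fit. The block leaves fewer residual degrees of freedom than the fit without it. With annotated models and the block together, 13 were called higher and 11 lower, beside 26.6% and 18.1%. OPR1, CYP94C1, AOC1 and AOC3 were among those called higher in both blocked fits, and JAZ4, LOX3, VSP2 and CYP94B1 among those called lower. PDF1.2 was called lower as well, but it was in these fits only through its SALK Col-0 values. JAZ8, among the 13 called higher, was in that fit only through its Another Col-0 values.

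Individual members stood apart in both directions. Among the tested members, the lines did not overlap in 13 higher (31.7%) and 15 lower ones (36.6%), beside 29.3% and 23.2% of the annotated tested models. JAZ8, among the 13, and PDF1.2, among the 15, passed the filter on low values only through the line where each was high. With the further condition of at least 0.5 log2 units in both replicate pairs, 2 members were higher, OPR1 and CYP94C1, and 3 were lower, JAZ4, VSP2 and PDF1.2. PDF1.2 passed the filter on low values only through SALK Col-0, where it is high, so nothing is read from its place in this count. The higher share was 4.88% of the members and the lower share, with PDF1.2 counted, 7.32%, beside 3.41% and 1.8% of the annotated tested models. Since PDF1.2 is in it, the 7.32% is not read against the 1.8%. The deposited lower and upper limits of a value were wide: in 0 of the 45 members did the limits of a line's libraries stand clear of those of the other line.

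**Figure D1:**
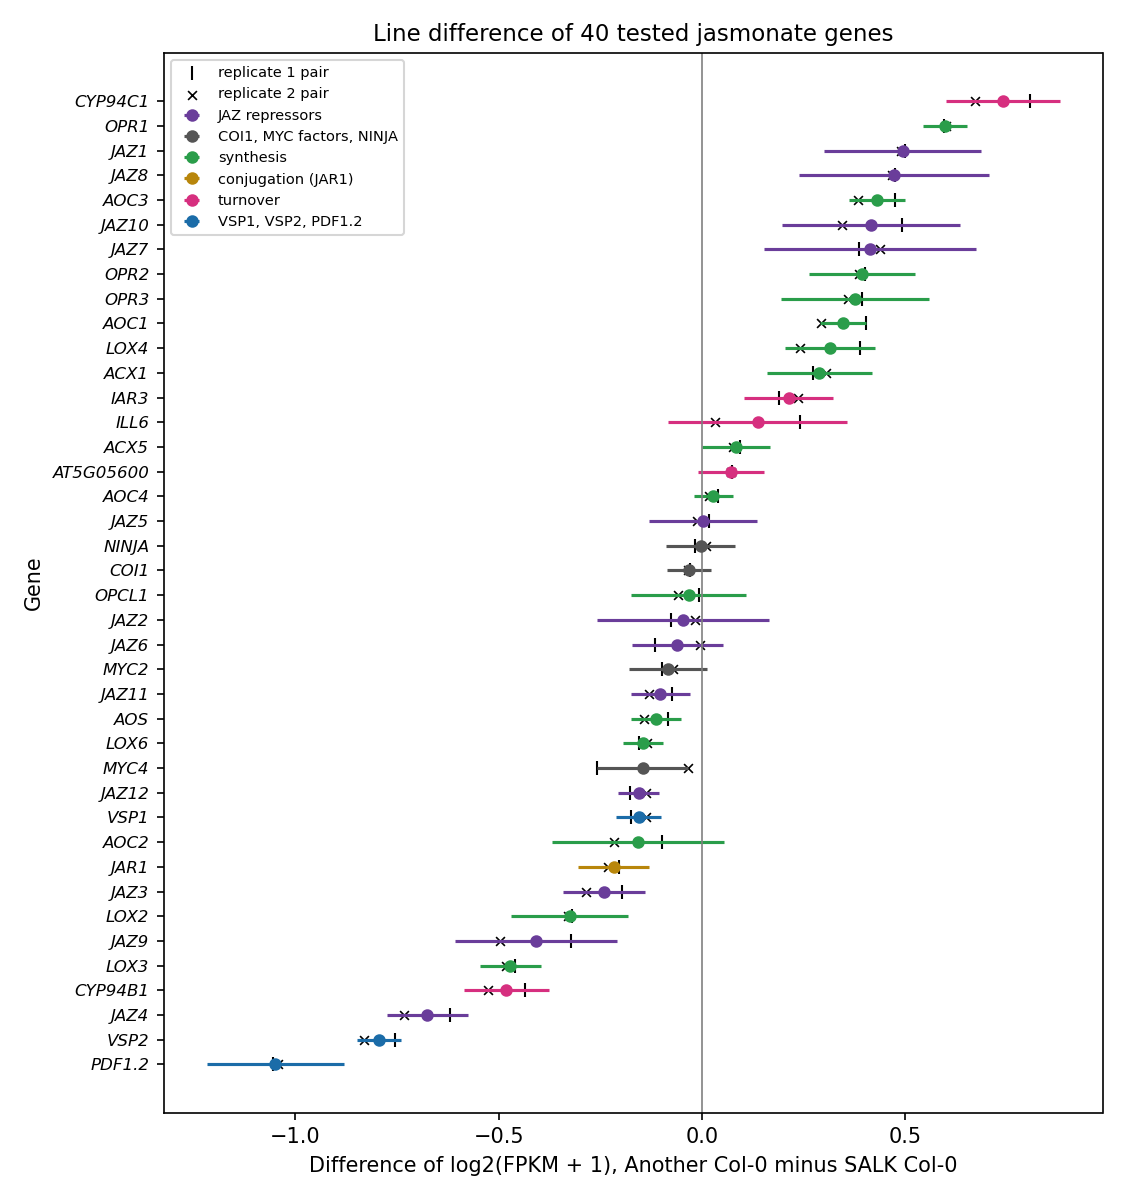
Line difference of 40 tested jasmonate genes (all tested members but MYC3, whose standard error of 2.48 would set the axis), in log2(FPKM + 1), Another Col-0 minus SALK Col-0. Coloured points are the differences with bars of 1 standard error from limma, and black marks are the values within replicate pair 1 (bars) and pair 2 (crosses). PDF1.2, VSP2 and JAZ4 lie farthest to the left and CYP94C1 and OPR1 farthest to the right.

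The output genes had lower values in Another Col-0. VSP2 (AT5G24770), which encodes a vegetative storage protein with acid phosphatase activity and is a standard reporter of the MYC branch, had 26.6 and 26.8 FPKM in SALK Col-0, against 15.3 and 14.6 in Another Col-0. The SALK Col-0 libraries were the high ones, and the libraries of a line lay close together. SALK Col-0 had 1.78-fold the level of Another Col-0, a difference of -0.79 ± 0.054 with -0.76 and -0.83 in the replicate pairs (limma, adjusted p = 0.199 over all models). VSP1 (8.06 and 8.06 against 7.03 and 7.24 FPKM), the neighbouring paralog, differed by -0.16 ± 0.054 and did not pass (limma, adjusted p = 0.322). Its lines did not overlap either, but it stood at a lower level than VSP2 in every library.

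VSP1 (AT5G24780) and VSP2 are 90.4% identical over 795 aligned coding bases. No stretch of 101 bases, the read length, is shared by their longest RefSeq transcripts. The VSP2 model lies on chromosome 5 from 8500476 to 8502224 and the VSP1 model from 8507590 to 8508957, both on the minus strand, each alone in its group of overlapping models (its bundle).

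PDF1.2 (AT5G44420), a plant defensin gene that jasmonate and ethylene switch on together through ethylene response factors, had 2.26 and 1.95 FPKM in SALK Col-0, against 0.565 and 0.432 in Another Col-0. Both SALK Col-0 libraries were above both others, at 4.21-fold the level, and the difference was -1.05 ± 0.17 (limma, adjusted p = 0.206). Its presence among the tested genes is not independent of that difference, since SALK Col-0 alone carried it past the filter. The values are low, and the deposited lower limit was 0 in every library. The model also lies within the span of another model on its strand, which joins AT5G44417, AT5G44418 and AT5G44440, and reads there may have been divided between them.

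A close copy of PDF1.2 gave values of the same direction. PDF1.2b had 15.3 and 8.99 FPKM in SALK Col-0, against 3.85 and 2.70 in Another Col-0, so again the SALK Col-0 libraries were the high ones. Its difference was -1.59 ± 0.33 (limma, adjusted p = 0.225). As for PDF1.2, its deposited lower limit was 0 in every library, and its upper limits lay between 9.08 and 42.5 FPKM. Another copy, PDF1.2c, was at 0.183 to 0.438 FPKM and was not tested. The coding sequences of PDF1.2 (TAIR10.1 chr5:17907216-17907550, minus strand) and PDF1.2b (chr2:11089281-11089597, plus strand) are shown because they are 93.8% identical, with 15 differing bases of 243, in capitals. The spans include an intron that is left out of the letters.
PDF1.2: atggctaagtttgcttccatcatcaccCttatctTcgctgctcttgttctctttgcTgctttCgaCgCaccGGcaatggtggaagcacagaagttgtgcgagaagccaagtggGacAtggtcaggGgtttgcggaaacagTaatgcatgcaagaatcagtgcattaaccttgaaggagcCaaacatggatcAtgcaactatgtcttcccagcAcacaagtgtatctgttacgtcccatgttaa
PDF1.2b: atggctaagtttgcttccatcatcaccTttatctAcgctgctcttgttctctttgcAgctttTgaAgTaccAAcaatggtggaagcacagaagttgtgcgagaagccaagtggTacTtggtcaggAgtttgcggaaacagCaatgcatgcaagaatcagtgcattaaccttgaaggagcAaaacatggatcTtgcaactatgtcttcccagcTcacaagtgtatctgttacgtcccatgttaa

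The differing bases are spread so that the longest RefSeq transcripts of the copies share no run of 101 bases. Reads with mismatches could still have been placed on either copy.

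**Figure D2:**
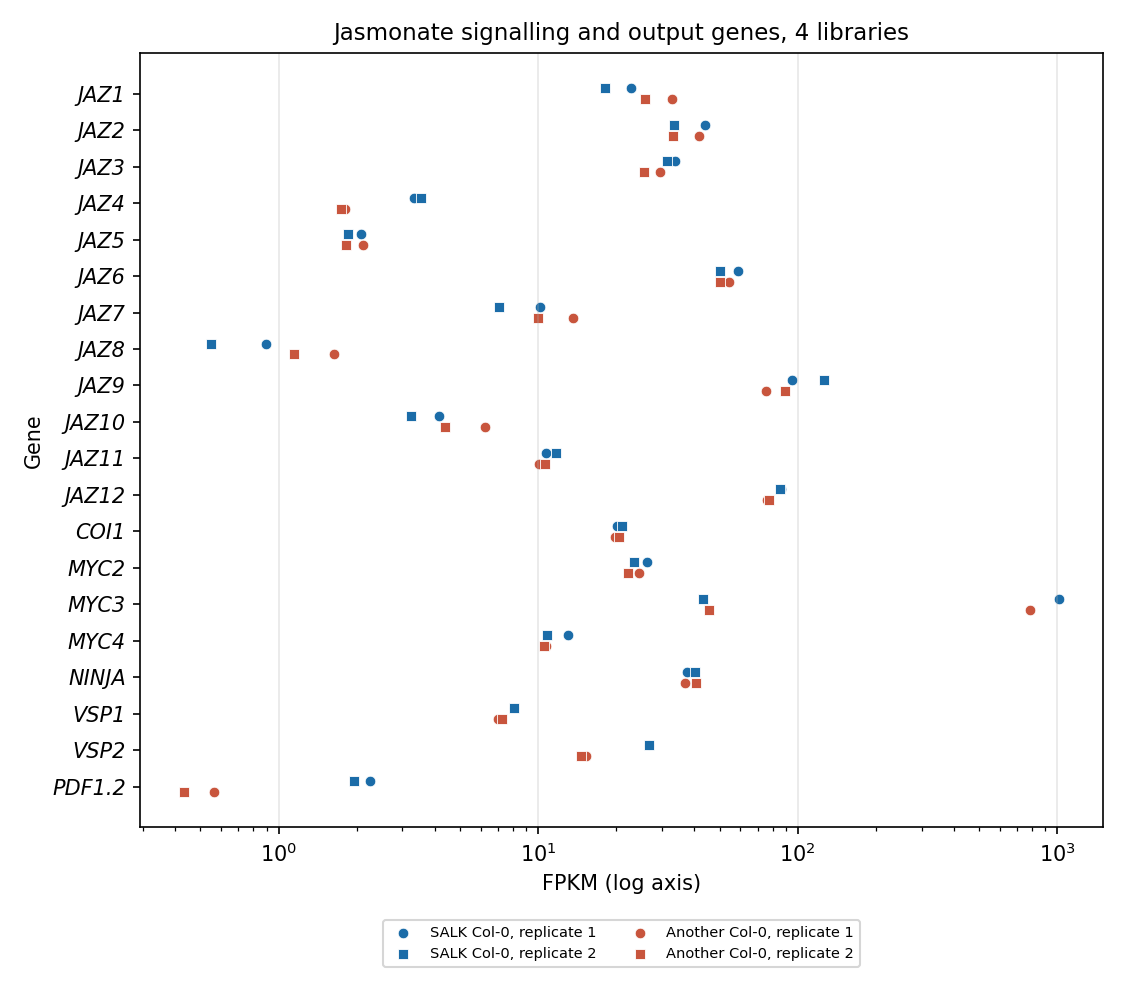
FPKM (log axis) of the 12 JAZ genes, COI1, the 3 MYC genes, NINJA and the 3 output genes in each of the 4 libraries. Blue points are SALK Col-0 and red points Another Col-0, circles replicate 1 and squares replicate 2. The lines are separate with blue higher in PDF1.2, VSP1, VSP2, JAZ3, JAZ4, JAZ9, JAZ11, JAZ12 and MYC4. They are separate with red higher in JAZ1, JAZ8 and JAZ10, and MYC3 separates by replicate number.

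The JAZ repressor genes had differences of both signs. Of 12, all tested, 3 were higher without overlap, 5 were lower without overlap and 4 overlapped, with a family median of -0.054. JAZ8, among the 3 higher, was tested only through its Another Col-0 values. Among all annotated tested models 29.3% were higher and 23.2% lower without overlap. None passed over all models (limma, adjusted p from 0.202 for JAZ4 to 1 for JAZ2 and JAZ5). Most JAZ proteins have a domain that binds COI1 with the hormone, and JAZ proteins differ in how readily they are degraded.

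The JAZ genes with higher values in Another Col-0 were JAZ1, JAZ8 and JAZ10 (AT5G13220), and JAZ7 overlapped narrowly. JAZ1 (AT1G19180), whose protein is a classical target of COI1, had 22.8 and 18.1 FPKM in SALK Col-0, against 32.6 and 25.7 in Another Col-0. JAZ10, which is known for splice forms that resist degradation, had 4.14 and 3.23 against 6.23 and 4.37 FPKM. The differences were 0.49 ± 0.19 for JAZ1 and 0.42 ± 0.22 for JAZ10, and they ranged from 0.33 to 0.66 and from 0.20 to 0.63 when a library was left out. JAZ8 (AT1G30135), whose protein lacks the usual degradation motif, had 0.896 and 0.550 FPKM in SALK Col-0, against 1.64 and 1.14 in Another Col-0.

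JAZ8 passed the filter on low values only through Another Col-0. Its difference was 0.47 ± 0.23. JAZ7 (AT2G34600), a close relative of JAZ8, had 10.2 and 7.09 against 13.6 and 9.96 FPKM, so that replicate 1 of SALK Col-0 lay just above replicate 2 of Another Col-0. Within the replicate pairs its difference was 0.39 and 0.44. All 4 genes had higher values in replicate 1 than in replicate 2 of both lines.

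The genes with lower values in Another Col-0 were JAZ3, JAZ4, JAZ9, JAZ11 and JAZ12. JAZ4 (AT1G48500) had 3.32 and 3.55 FPKM in SALK Col-0, against 1.81 and 1.74 in Another Col-0. The libraries of a line were close, SALK Col-0 had 1.93-fold the level, and the difference was -0.68 ± 0.10 (limma, adjusted p = 0.202). JAZ9 (AT1G70700), the JAZ gene with the highest mean level, had 94.7 and 126 against 75.6 and 89.2 FPKM, with a difference of -0.41 ± 0.20 that was between -0.61 and -0.20 with a library left out. JAZ3 (AT3G17860), first known from a dominant jasmonate-insensitive mutant, had 33.8 and 31.4 against 29.4 and 25.6 FPKM.

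JAZ3 and JAZ4, which form a subgroup of the family with JAZ9, were thus low in the same line. JAZ12 (AT5G20900) had 86.0 and 85.5 against 76.1 and 77.7 FPKM, and JAZ11 (AT3G43440) had 10.7 and 11.7 against 10.1 and 10.6 FPKM. These were small differences of -0.16 ± 0.050 and -0.10 ± 0.073. The JAZ12 model shares 28 bases with AT5G20910 on the other strand.

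JAZ2 (AT1G74950), JAZ5 and JAZ6 overlapped between the lines. JAZ6 (AT1G72450) had 58.8 and 50.3 FPKM in SALK Col-0, against 54.2 and 50.1 in Another Col-0, and JAZ2 had 44.0 and 33.4 against 41.7 and 33.0. JAZ5 (AT1G17380) stood at 1.82 to 2.12 FPKM over the 4 libraries. In JAZ2 the libraries of a number were closer to each other than those of a line.

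The receptor, the adaptor and MYC2 (AT1G32640) had overlapping lines. COI1 (AT2G39940), the F-box receptor, had 20.2 and 21.0 FPKM in SALK Col-0, against 19.7 and 20.5 in Another Col-0, a difference of -0.032 ± 0.055. NINJA (AT4G28910), the adaptor between JAZ proteins and the corepressor, had 37.3 and 40.2 against 36.8 and 40.6 FPKM. MYC2, the leading transcription factor of the pathway, had 26.3 and 23.4 against 24.5 and 22.3 FPKM, a difference of -0.084 ± 0.096.

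MYC4 (AT4G17880), which acts redundantly with MYC2 and MYC3 (AT5G46760), had 13.1 and 10.8 against 10.8 and 10.6 FPKM. Its lines did not overlap, but the replicate pairs gave -0.26 and -0.034. The COI1 model shares 348 bases with AT2G39930 on the other strand, where reads cannot be assigned by strand.

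MYC3 could not be read as a level. The deposited values were 1013 and 43.1 FPKM in SALK Col-0, against 784 and 45.7 in Another Col-0, so the replicate numbers stood far apart and the lines did not. A short unannotated model on the minus strand, from 18974017 to 18974330 on chromosome 5, overlaps the first 261 bases of the MYC3 model on the plus strand. It was listed at 0 in replicate 1 of both lines and at 144 and 132 FPKM in replicate 2 of SALK Col-0 and Another Col-0. The deposited limits of MYC3 ran from 24.9 to 4722 FPKM in SALK Col-0 replicate 1 and from 28.0 to 3848 in Another Col-0 replicate 1, and from 27.0 to 59.1 and from 28.9 to 62.5 in the replicates 2. The line difference of -0.14 ± 2.48 was therefore uninformative (limma, adjusted p = 1). Within the replicate 2 pair, where the limits were narrow, it was 0.083.

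**Figure D3:**
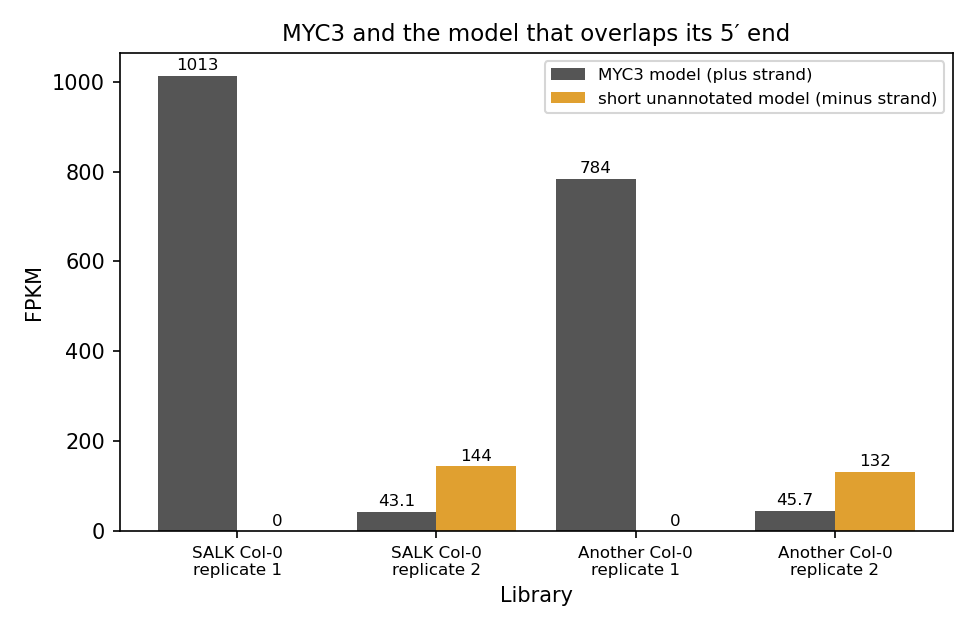
FPKM of the MYC3 model and of the short unannotated model that overlaps its start on the other strand, in the 4 libraries (bars from 0, no error bars). In replicate 1 of both lines MYC3 is at 1013 and 784 FPKM and the short model at 0, and in replicate 2 they are at 43.1 and 45.7 against 144 and 132.

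Synthesis begins with lipases and lipoxygenases. DAD1 (AT2G44810), a lipase that supplies the precursor fatty acid in anthers, and DGL (AT1G05800), a related galactolipase, were listed at 0 in all 4 libraries. The lipoxygenases, which add oxygen to the fatty acid, had values in both directions. LOX2 (AT3G45140), the main lipoxygenase of wounded leaves, had 81.2 and 96.1 FPKM in SALK Col-0, against 64.9 and 76.2 in Another Col-0, a difference of -0.33 ± 0.14. LOX3 (AT1G17420) had 5.59 and 5.98 against 3.80 and 3.99 FPKM, a difference of -0.47 ± 0.076 (limma, adjusted p = 0.206). Both were lower in Another Col-0, with no overlap.

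The LOX4 values lay the other way. LOX4 (AT1G72520), which acts together with LOX3 in stamens, had 2.17 and 2.17 FPKM in SALK Col-0, against 3.15 and 2.75 in Another Col-0, a difference of 0.32 ± 0.11. LOX3 and LOX4 are 81.1% identical over 2747 aligned coding bases and their transcripts share no run of 101 bases. LOX6 (AT1G67560), which feeds the earliest wound response, had 22.5 and 21.9 against 20.1 and 19.8 FPKM. Its lines did not overlap, and its difference was -0.15 ± 0.049.

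AOS (AT5G42650), the single allene oxide synthase gene, had 81.5 and 79.9 FPKM in SALK Col-0, against 76.8 and 72.3 in Another Col-0. The 4 allene oxide cyclase genes, whose enzymes fix the ring of the precursor, differed among themselves. AOC1 (AT3G25760) had 17.9 and 18.8 against 24.0 and 23.2 FPKM, and AOC3 (AT3G25780) had 6.48 and 6.39 against 9.41 and 8.65. Both were higher in Another Col-0 without overlap, by 0.35 ± 0.056 and 0.43 ± 0.069 (limma, adjusted p = 0.207 and 0.204).

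AOC2 (AT3G25770) had the highest cyclase values in each library, with 103 and 83.9 FPKM in SALK Col-0, against 96.3 and 72.1 in Another Col-0, and its lines overlapped. AOC4 (AT1G13280) had 39.2 and 39.4 against 40.3 and 39.9 FPKM, a difference of 0.028 ± 0.047, or -0.025 after quantile normalization. The order of the cyclases by level, AOC2, AOC4, AOC1 and AOC3, was the same in all 4 libraries. AOC1, AOC2 and AOC3 lie side by side on chromosome 3 between 9403883 and 9410567. AOC1 and AOC2 are 90.3% identical over 762 aligned coding bases, and none of the cyclase transcripts share a run of 101 bases.

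**Figure D4:**
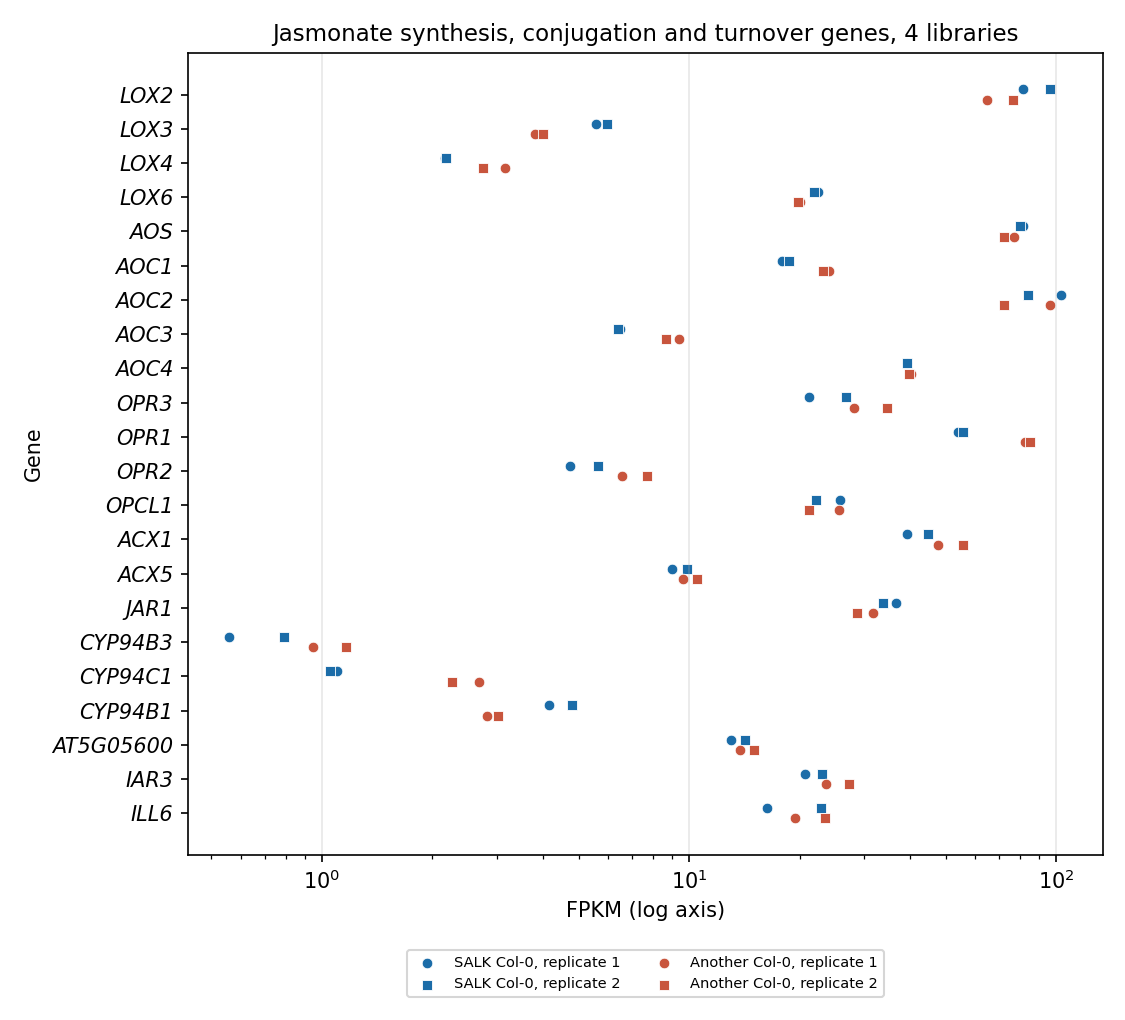
FPKM (log axis) of the 15 synthesis genes, JAR1 and the 6 turnover genes in each of the 4 libraries, with blue for SALK Col-0, red for Another Col-0, circles for replicate 1 and squares for replicate 2. DAD1, DGL and JMT, at or near 0, are not drawn. The lines are separate with red higher in LOX4, AOC1, AOC3, AOC4, OPR1, OPR2, OPR3, ACX1, IAR3, CYP94C1 and CYP94B3. They are separate with blue higher in LOX2, LOX3, LOX6, AOS, JAR1 and CYP94B1.

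The oxophytodienoate reductase genes had higher values in Another Col-0. OPR3 (AT2G06050), the peroxisomal enzyme that reduces the jasmonate precursor, had 21.2 and 26.8 FPKM in SALK Col-0, against 28.2 and 34.6 in Another Col-0, a difference of 0.38 ± 0.18. OPR1 (AT1G76680), a relative outside the main synthesis route, had 54.0 and 55.7 against 82.1 and 84.9 FPKM. OPR1 stood at 1.52-fold the SALK Col-0 level in both replicate pairs, a difference of 0.60 ± 0.055 (limma, adjusted p = 0.199). OPR2 (AT1G76690), the neighbour of OPR1, had 4.74 and 5.65 against 6.59 and 7.69 FPKM, a difference of 0.39 ± 0.13.

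OPR1 and OPR2 are 91.7% identical over 1119 aligned coding bases. Of the 101-base windows of the longest OPR2 transcript, 8.63% occur in that of OPR1, and 6.7% the other way, so some reads cannot be told apart. The values of this pair are uncertain to that extent. The OPR2 model also shares 76 bases with AT1G76700 on the other strand.

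Of the later enzymes, ACX1 (AT4G16760), an acyl-CoA oxidase of the peroxisome, had 39.2 and 44.9 FPKM in SALK Col-0, against 47.6 and 55.8 in Another Col-0, with no overlap and a difference of 0.29 ± 0.13. ACX5 (AT2G35690), its close relative, had 8.99 and 9.90 against 9.66 and 10.5 FPKM and overlapped. OPCL1 (AT1G20510), which activates the precursor with coenzyme A, was measured in a model that also holds AT1G20480 and spans AT1G20490 and AT1G20500. That model had 25.8 and 22.2 against 25.6 and 21.3 FPKM, and its level belongs to OPCL1 only in part.

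JAR1 (AT2G46370), which makes the active isoleucine conjugate, had 36.6 and 33.8 FPKM in SALK Col-0, against 31.7 and 28.7 in Another Col-0. The SALK Col-0 libraries were the high ones, and the difference was -0.22 ± 0.087 (limma, adjusted p = 0.363). JMT (AT1G19640), which makes the volatile methyl ester, was listed at 0 in Another Col-0 replicate 1 and at 0.0122 to 0.0398 FPKM in the others, too low to compare.

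Turnover genes of the CYP94 family, whose enzymes oxidise the active conjugate, went in different directions. CYP94C1 (AT2G27690) had 1.10 and 1.05 FPKM in SALK Col-0, against 2.68 and 2.26 in Another Col-0, and the Another Col-0 libraries stood at 2.30-fold the level. Its difference of 0.74 ± 0.14 was the highest among the 41 tested members (limma, adjusted p = 0.22). CYP94B1 (AT5G63450) had 4.16 and 4.79 against 2.81 and 3.02 FPKM, a difference of -0.48 ± 0.11 (limma, adjusted p = 0.231).

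CYP94B3 (AT3G48520), the founding oxidase of the conjugate, had 0.560 and 0.790 FPKM in SALK Col-0, against 0.944 and 1.16 in Another Col-0. Its lines did not overlap, but its mean of 0.864 FPKM was under the filter, and it was not tested. In CYP94C1 and CYP94B3 the Another Col-0 libraries were the high ones, and in CYP94B1 the low ones.

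IAR3 (AT1G51760) and ILL6 (AT1G44350) encode amidohydrolases that split hormone conjugates. The IAR3 model, which also holds AT1G51780, had 20.7 and 23.0 FPKM in SALK Col-0, against 23.7 and 27.3 in Another Col-0, without overlap and with a difference of 0.21 ± 0.11. ILL6 had 16.3 and 22.9 against 19.5 and 23.4 FPKM and overlapped. AT5G05600, annotated as an oxygenase that depends on oxoglutarate and iron, had 13.0 and 14.2 against 13.8 and 15.0 FPKM. The last 2 genes thus differed less between the lines than between replicate numbers.

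Other genes of the pathway gave no common direction either. A list of 41 genes (42 models, 31 tested) had a median of 0.004, with 9 higher and 11 lower without overlap and 0 past the adjusted threshold. Of the annotated tested models 29.3% were higher and 23.2% lower without overlap. With the replicate block 5 were called higher and 4 lower, beside 14.3% and 8.11% of all tested models. Apart from PDF1.2b, the models with the smallest p were these. CORI3, a cystine lyase gene that jasmonate induces, had 7.70 ± 0.21 FPKM in SALK Col-0, against 12.1 ± 0.67 in Another Col-0 (mean ± SD, n = 2). HEL, which encodes a chitin-binding defence protein, had 72.3 ± 12.5 against 137 ± 20.3 FPKM. AT1G01260, a basic helix-loop-helix factor gene, had 10.2 ± 0.31 against 13.2 ± 0.58 FPKM.

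CORI3, HEL and AT1G01260 thus had higher values in Another Col-0, by 0.59 ± 0.068, 0.91 ± 0.19 and 0.34 ± 0.063. LOX1, a lipoxygenase outside jasmonate synthesis, had 9.67 ± 0.15 FPKM in SALK Col-0, against 6.71 ± 0.27 in Another Col-0. CLH1, a chlorophyllase gene known as coronatine-induced, had 13.3 ± 1.80 against 8.33 ± 0.98 FPKM. The adjusted p of the 6 named models lay between 0.199 and 0.24 (limma).

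Genes of the early response to wounding and touch had mostly higher values in Another Col-0. In a list of 12, with 11 tested, 9 were higher and 1 lower without overlap, the median was 0.54, and 0 passed. Of the annotated tested models 29.3% were higher and 23.2% lower without overlap. With the replicate block 9 were called higher and 1 lower, beside 14.3% and 8.11% of all tested models. The list was chosen with earlier results of these data known, so its counts are no independent result. The lower one was WRKY33, at 92.8 ± 5.11 FPKM in SALK Col-0, against 68.7 ± 3.80 in Another Col-0. ZAT10, a zinc finger repressor, had 17.2 ± 0.53 FPKM in SALK Col-0, against 48.6 ± 3.81 in Another Col-0, and ERF105, of the ethylene response factors, had 27.6 ± 0.97 against 61.1 ± 6.15. ERF6 had 82.3 ± 2.68 against 116 ± 2.05 FPKM, but its model shares a bundle with many others and its deposited limits ran from 0 to at least 351 FPKM in each library. The summed level of the list was 1509 to 1669 FPKM in SALK Col-0, against 2194 to 2374 in Another Col-0. Its part in the values of the jasmonate genes was not tested.

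Markers of other organs were also read beside the jasmonate genes. The summed flower markers had 16.9 to 22.4 FPKM in SALK Col-0, against 40.5 to 47.6 in Another Col-0. Of 10 markers 3 were tested: PI (3.03 ± 0.25 against 9.02 ± 0.85 FPKM), SEP3 (14.7 ± 3.50 against 32.9 ± 3.97) and SHP1 (1.43 ± 0.15 against 1.36 ± 0.097), and none passed. With the replicate block 2 of them were called higher, beside 14.3% of all tested models. The other 7 were at 0 to 0.346 FPKM, with the stamen factor gene MYB21 listed at 0 in all libraries, as were DAD1 and DGL. Since the tissue is a whole seedling, fewer cells of a type and less RNA per cell cannot be told apart.

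The leaf markers summed to 18690 to 19540 FPKM in SALK Col-0, against 19930 to 20260 in Another Col-0. Most single markers lay the other way: of the 5 tested, 1 (RBCS1A) was higher in Another Col-0 and 4 were lower. RBCS1A, whose model runs over many neighbouring genes, had 6646 ± 27.4 against 8206 ± 538 FPKM, CA1 had 631 ± 72.2 against 444 ± 50.1, and the model of RBCS2B had 1916 ± 122 against 1678 ± 169. CAB1 was listed at 0 in all libraries, but with a lower limit above its upper limit, so this 0 is not read as a level. The model of CAB3, which also holds AT1G29920, stood at 8178 to 8779 FPKM. Its deposited limits were wide, from 7.49 to 21130 FPKM in SALK Col-0 replicate 1. The medians of the 5 tested leaf and 7 tested root markers were -0.069 and -0.093.

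The summed root markers had 58.3 to 65.9 FPKM. PER64 had 10.9 ± 0.072 against 8.0 ± 0.17 FPKM, IRT1 had 4.77 ± 0.17 against 3.28 ± 0.23, and CASP2 had 9.49 ± 0.26 against 10.6 ± 1.04. Of the 5 seed markers CRA1 alone was tested, at 7.08 ± 0.30 against 2.16 ± 0.17 FPKM, and SESA2 was listed at 0 in all libraries. CRU3 (means of 0.138 against 0.209 FPKM), CRU2 (0 against 0.013) and SESA1 (0 against 0.0751) lay the other way, at values near 0. With the replicate block 2 root markers, 1 leaf marker and CRA1 were called lower, beside 8.11% of all tested models. The part of the flower, leaf, root and seed markers in the values of the jasmonate genes was not tested.

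VSP2 and JAZ4 were the 2 members that passed in a narrower fit. Among the 11898 tested annotated models alone in their bundle, a subset picked with the data in view, both were lower in Another Col-0 (limma, adjusted p = 0.0405 and 0.048), 2 of the 34 members in that fit. In it 0.403% of the models were called lower and 0.983% higher, and no jasmonate gene was called higher.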

How the data were processed

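The table that the authors deposited gives, per the file headers, an FPKM value of each library for 36251 gene models, together with its status and its lower and upper limit. The submitters' processing notes list TopHat, Cufflinks, Cuffdiff and the build TAIR10, whose versions and roles are not given in the sources used here. Libraries were single reads of 101 nt from a TruSeq RNA V2 kit, per the labels' protocols, and such a kit does not mark strand. Read totals are not used here, so the depth is unknown and the deposited limits stand for the precision. Between 22495 and 22822 annotated models were above 0 in a library.

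From these values log2(FPKM + 1) was computed, and the 20634 models whose mean reached 1 FPKM were fitted with limma 3.58.1 in R 4.3.3 with the line as the single term, a mean-variance trend, two-sided tests and Benjamini-Hochberg adjustment at 0.05. The fit had 2 residual degrees of freedom, and fewer with the replicate block or with a library left out. The script was tested on simulated data. Models without an OK status in every library (19) were left out. For 301 organelle models with shifted annotation fields, the identifier was taken from where it stood. The members and the lists (other pathway, early wound and touch, flower, root, leaf and seed) were chosen with earlier results of these data known. Every member is accounted for, and of the lists the 6 (other pathway) or up to 3 models with the smallest p are named. WRKY33, PDF1.2c and some markers are named beside them. Symbols, promoter windows and coding sequences are from RefSeq (TAIR10.1), which held all 45 members, and coordinates of models are those of the deposited table (TAIR10, counted from 1). Of 30152 models of a single gene, 30151 overlap the RefSeq gene of the same identifier. Protein sequences were not used here. Alternatives changed the scaling, the trend, the filter or the pseudocount, added the replicate number, left out each library, or kept subsets of models.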

Additional observations from a re-analysis of the deposited data

How the results depend on the processing

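With 2 libraries a line, the deposited limits of the lines overlapped for every member, and the difference of MYC3 had the largest standard error (2.48). Of 597 recomputed values of the 41 tested members, 536 kept direction and side of the threshold, 45 passed it in addition and 16 reversed, and 32 members reversed under no alternative. A change of only the trend, the filter, the replicate block or the subset of models leaves a member's difference as it is. Direction was fixed in advance in those fits, so these counts overstate how stable it was. The replicate number as a block in the model gave 11 higher and 8 lower members (beside 14.3% and 8.11% of all models), and with annotated models only 13 and 11 (beside 26.6% and 18.1%). JAZ8, among the 13, and PDF1.2, among the 8 and the 11, passed the filter only through the line where each was high. Same-numbered libraries deviated together (r = 0.789 over 18432 annotated models, which are not independent replicates), but the labels do not say that a number marks a shared batch, so the block stays an alternative. Among models alone in their bundle 0 members were higher and 2 lower, and this subset and that without organelle models were chosen after seeing the data. Leaving out a library gave 0 to 0 members called in each direction, but no model had an adjusted p below 0.567 (limma) in those fits, so they say nothing about calls. They gave 15 to 16 higher and 15 to 21 lower members without overlap, beside 40.5% to 44% and 32.9% to 36.2% of annotated models, since fewer libraries overlap less often by construction. The members' medians ran from -0.094 to 0.018. Of the members 8 changed sign and a further 16 moved by over 1.5 times in at least 1 of those fits, among them JAZ7 (0.178 to 0.648), OPR3 (0.216 to 0.537), LOX2 (-0.445 to -0.205), ACX1 (0.177 to 0.402) and IAR3 (0.115 to 0.311), and 17 moved by less. The median was -0.074 after quantile normalization and -0.058 after scaling to the same median, where that of all tested models became -0.006 and 0.001. Reversals were in MYC3, in AOC2 (-0.157) and ILL6 (0.137), and in members nearer 0. JAZ5 had -0.003 after quantile normalization, where AOC4 had -0.025, and -0.015 after scaling. With libraries left out the differences ranged from -0.24 to 0.146 for JAZ2, -0.071 to 0.075 for JAZ5, -0.172 to 0.051 for JAZ6, -2.405 to 2.119 for MYC3, -0.07 to 0.065 for NINJA, -0.364 to 0.049 for AOC2, -0.162 to 0.095 for OPCL1, -0.094 to 0.368 for ILL6 and -0.104 to 0.021 for SHP1. The cause was not tested, except that fewer samples enter those fits.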
